A study of Microtus ochrogaster with 25 samples.

Results

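The comparison described here was that of MAN1 with MAN0 in female prairie voles (Microtus ochrogaster), over the genes of the nuclear genome. It was defined by the treatment and sex in the sample labels and held 6 MAN1 females and 7 MAN0 females, 13 of the 25 libraries of the series. The other 12 libraries came from 5 MAN1 males and 7 MAN0 males. All were messenger RNA libraries of bulk nucleus accumbens, and the labels gave no age, litter, genotype or strain. The labels do not define MAN0 and MAN1. In published work on this species, the names stand for how a family was moved to a clean cage soon after birth, with the parents lifted by hand (MAN1) or carried over without being touched (MAN0). The title of the series names an effect of parental care specific to males, and the female comparison asks what the other sex showed.

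The nucleus accumbens is the part of the ventral striatum in which dopamine from the midbrain meets glutamate input from cortex, hippocampus and amygdala. Most of its neurons are GABAergic medium spiny neurons, with interneurons and glia among them. In prairie voles, which form pair bonds and raise young with both parents, the region is known for its dense oxytocin receptors and for its part in partner preference. Bulk tissue mixes all these cells, so fewer cells of a type and less RNA per cell cannot be told apart.

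The deposited table named its 19648 genes by Ensembl identifier only. The RefSeq gene table at hand (assembly MicOch1.0, 26397 genes) held 0 Ensembl identifiers, so it could not match any of them. Nuclear genes are therefore described by level, by direction and, for 4 of them, by identifier. The labelled tissue could not be checked against striatal marker genes for the same reason. The 13 rows taken as mitochondrial protein genes were set aside before scaling, which left 19635 nuclear rows, and 14827 of these had enough counts to be tested. Library totals in females lay between 19882129 and 28574487 counts. The index in the sample titles starts again at library 17. Libraries 1 to 16 are called run 1 (4 MAN1 and 4 MAN0 females) and later ones run 2 (2 MAN1 and 3 MAN0 females).

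No nuclear gene passed the test for a difference between MAN1 and MAN0 females. With edgeR's quasi-likelihood test and Benjamini-Hochberg adjustment, 0 of 14827 genes (0%) had an adjusted p under 0.05, and the smallest adjusted p was 0.989. The count was also 0 by DESeq2 and by limma-voom. An unadjusted p under 0.05 was found for 359 genes by edgeR (2.42% of those tested), 418 by DESeq2 and 360 by limma-voom, whereas an even spread of p-values would give 741. Of the 359 genes, 158 (1.07%) were estimated higher and 201 (1.36%) lower in MAN1. That majority turned over with 2 surrogate variables in the model (303 higher and 192 lower) and without MAN0 female 5 (314 higher and 305 lower). The count moved to 569 without MAN0 female 1, 619 without MAN0 female 5 and 239 without MAN0 female 7. It was 231 in run 1 alone and 418 in run 2 alone.

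**Figure D1:**
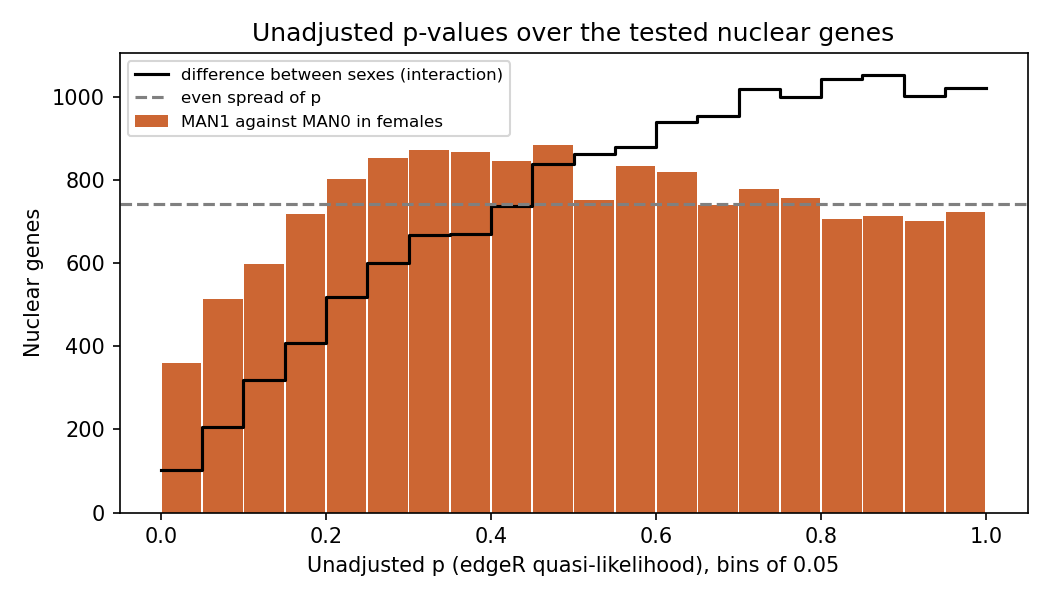
Number of nuclear genes (vertical axis) by unadjusted p of edgeR's quasi-likelihood test in bins of 0.05 (horizontal axis), for MAN1 against MAN0 in females (bars) and for the difference between the sexes (line); the dashed line marks 741 genes per bin, an even spread. The leftmost bin holds 359 genes for females and 102 for the difference between the sexes, both under the dashed line.

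Most of the estimated differences were small. The median log2 fold change over the 14827 genes was 0.0041, and from the 10th to the 90th percentile it ran from -0.19 to 0.18. Of the 14827 genes, 7595 (51.2%) had a positive and 7232 a negative estimate. The 95% interval of the fold change lay inside 1.5-fold in either direction for 11236 genes (75.8%) and inside 2-fold for 13610 genes (91.8%). For the median gene the interval reached 1.205-fold to either side of the estimate.

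How narrow these intervals were followed the level of the gene, given here as CPM, counts after TMM scaling to a common nuclear total and averaged over the 13 female libraries. The 2488 genes at 100 CPM or more made up 69.2% of the summed CPM of the tested genes. Their intervals lay inside 1.5-fold for 2382 genes (95.7%), and 19 of them had an unadjusted p under 0.05 (11 higher and 8 lower, 0.764%). Among the 7424 genes from 10 to 100 CPM, 6783 intervals (91.4%) lay inside 1.5-fold. The 3778 genes from 1 to 10 CPM gave 2035 such intervals (53.9%) and 3303 (87.4%) inside 2-fold. For the 1137 genes under 1 CPM the interval lay inside 1.5-fold for 36 (3.17%) and inside 2-fold for 467 (41.1%). For most genes of this lowest class the interval therefore did not exclude a 1.5-fold difference in at least 1 direction. Whether depth or the spread between libraries set this limit was not tested. The shares with an unadjusted p under 0.05 were 3.61%, 3.52% and 2.24% from the lowest to the third class, against 2.42% for all genes.

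**Figure D2:**
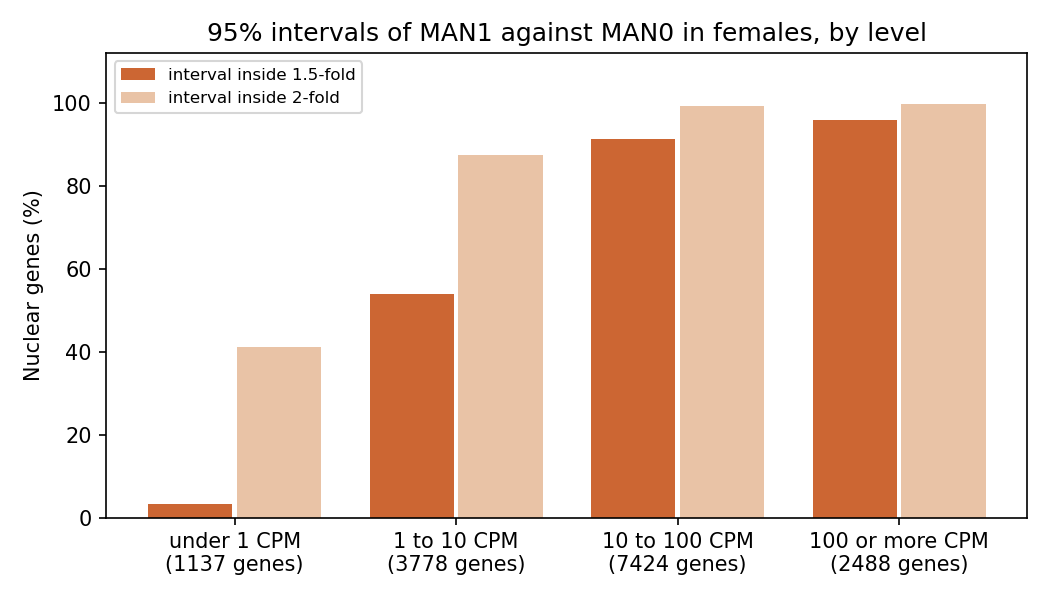
Share of nuclear genes (vertical axis, %) whose 95% interval of the MAN1 to MAN0 fold change in females lay inside 1.5-fold (dark bars) or inside 2-fold (light bars), by mean level over the 13 female libraries (horizontal axis, CPM, with the number of genes). The share inside 1.5-fold rises from 3.17% under 1 CPM to 95.7% at 100 CPM or more.

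The most abundant nuclear transcripts showed no common direction. Of the 10 nuclear genes with the largest share of counts, at 2201 to 5169 CPM, 5 were estimated higher and 5 lower in MAN1 females. Their log2 fold changes lay between -0.12 and 0.092, and their smallest unadjusted p was 0.0864 (edgeR quasi-likelihood). Together they took 2.96% ± 0.192 of the nuclear counts in MAN1 females (SD, n = 6) and 2.97% ± 0.234 in MAN0 females (n = 7). The run-adjusted difference, MAN1 minus MAN0, was -0.013 percentage points (exact permutation p = 0.91, 2-sided, adjusted p = 0.921 over 4 library measures).

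Mitochondrial transcripts, which encode subunits of the respiratory chain and ATP synthase and are made inside the organelle, were kept apart as a summed share of all counts. In MAN1 females 1 to 6 that share was 7.61%, 8.34%, 11.8%, 9.78%, 12.2% and 7.17%. In MAN0 females 1 to 7 it was 9.34%, 8.04%, 13.4%, 10.4%, 8.83%, 12.6% and 12.3%. The groups overlapped over most of their range, with libraries above 11% and below 9% in each. The means were 9.47% ± 2.13 (SD, n = 6) and 10.7% ± 2.09 (n = 7). The run-adjusted difference of -1.17 percentage points was within the spread between libraries (exact permutation p = 0.351, 2-sided over 700 assignments within run, adjusted p = 0.703 over 4 library measures). Within run 1 the difference was -0.91 and within run 2 it was -1.59 percentage points. It shrank to -0.42 without MAN1 female 6. The share in the 12 males ran from 7.71% to 17.8%. With the mitochondrial rows left in the table, 365 genes had an unadjusted p under 0.05, and 354 of the 359 nuclear genes were among them. The list changed more with the mitochondrial share as a covariate, a setting chosen after the data were seen. It then held 312 genes, and 210 of the 359 nuclear genes (58.5%) stayed on it. Why the list changed was not tested.

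MAN0 female 7 stood apart from the other females in its nuclear genes. Over the 13690 genes with a mean of at least 1 CPM in females, 24.97% of its values lay more than 1.5-fold from the median of the other MAN0 females. The same share was 4.76% to 12.1% in the other 6 MAN0 females and 6.10% to 10.2% in the MAN1 females. In this library 353 genes stood at least 2-fold below every other female library and 0 stood 2-fold above. The count of genes below was 72 in MAN0 female 2 and between 8 and 28 in the other 11 females. MAN0 female 7 also had the lowest nuclear total in females, 17431732 counts, and its mitochondrial share of 12.3% was within the range of the group. Without it 0 genes passed, and 187 of the 359 genes kept an unadjusted p under 0.05 (52.1%, and 78.2% of the 239 then found).

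**Figure D3:**
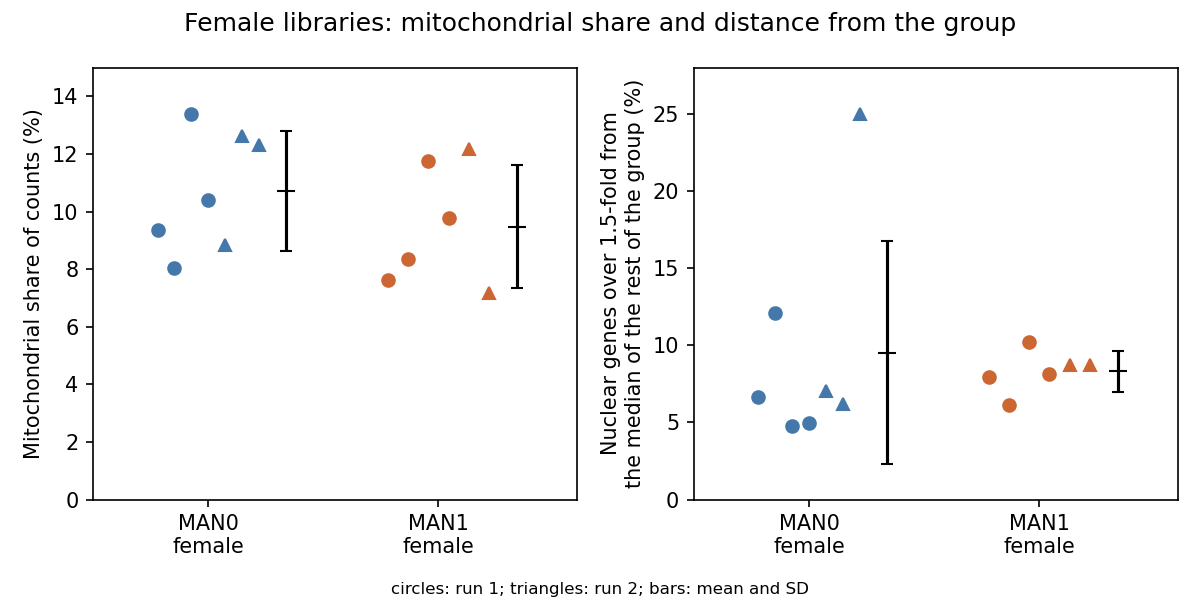
Left, share of all counts in the 13 mitochondrial rows (vertical axis, %) in each MAN0 and MAN1 female library; right, share of nuclear genes more than 1.5-fold from the median of the rest of the group (vertical axis, %). Circles are run 1, triangles run 2, bars the mean and SD; the mitochondrial shares overlap, and MAN0 female 7 stands alone at 24.97% on the right.

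The lower gene with the smallest p was ENSMOCG00000015262. In MAN1 females 1 to 6 it stood at 5.02, 5.31, 6.96, 5.79, 5.66 and 3.78 CPM. In MAN0 females 1 to 7 it stood at 10.5, 6.78, 7.32, 8.52, 9.02, 9.62 and 9.60 CPM. All MAN1 libraries lay below the MAN0 median and 5 of 6 below the lowest MAN0 library, with MAN1 female 3 just above it. The log2 fold change was -0.70 (SE 0.17), with a 95% interval from -1.05 to -0.35, and it did not pass (edgeR quasi-likelihood, unadjusted p = 0.000408, Benjamini-Hochberg adjusted p = 0.989). It was -0.52 (SE 0.23) in run 1 and -1.002 (SE 0.25) in run 2. Leaving out each library in turn moved it between -0.78 and -0.61. In males the gene averaged 6.08 ± 1.48 CPM in MAN1 (SD, n = 5) and 7.06 ± 1.68 CPM in MAN0 (n = 7), a log2 fold change of -0.23 (SE 0.18). The female and male fold changes differed by -0.47 (SE 0.24, edgeR quasi-likelihood interaction, unadjusted p = 0.0639). The gene was chosen by its female p, and this difference contains the same female estimate. A larger difference in females was therefore favoured by the choice, here and for the other genes chosen this way.

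The second lower gene, ENSMOCG00000007536, had lower MAN1 values in run 1 than in run 2, a difference that was not tested. The 4 MAN1 females of run 1 lay at 24.9, 24.7, 24.8 and 24.8 CPM, while those of run 2 lay at 33.7 and 29.6 CPM. The MAN0 females lay between 30.5 and 37.8 CPM with a median of 34.5, and MAN1 female 5 overlapped them. The log2 fold change was -0.34 (SE 0.086; edgeR quasi-likelihood, unadjusted p = 0.000639, Benjamini-Hochberg adjusted p = 0.989). It was -0.45 (SE 0.11) in run 1 and -0.15 (SE 0.14) in run 2. In males it was -0.081 (SE 0.092), and the sexes differed by -0.26 (SE 0.13, edgeR interaction, unadjusted p = 0.0503).

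Of the higher genes, ENSMOCG00000007881 had a small difference with little spread. MAN1 females 1 to 6 stood at 36.6, 38.7, 39.5, 41.6, 40.1 and 39.3 CPM. MAN0 females 1 to 7 stood at 37.3, 31.7, 36.7, 33.6, 34.3, 34.99 and 27.2 CPM. Of the 6 MAN1 libraries 5 lay above the highest MAN0 library, and MAN0 female 7 was the lowest of all. The log2 fold change was 0.22 (SE 0.063), with a 95% interval from 0.090 to 0.35 (edgeR quasi-likelihood, unadjusted p = 0.00193, Benjamini-Hochberg adjusted p = 0.989). It was 0.17 (SE 0.071) in run 1, 0.30 (SE 0.15) in run 2 and 0.17 without MAN0 female 7. In males it was 0.13 (SE 0.067), with 39.7 ± 1.96 CPM in MAN1 (n = 5) and 36.2 ± 1.94 CPM in MAN0 (n = 7). The sexes differed by 0.092 (SE 0.092, edgeR interaction, unadjusted p = 0.325).

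For the other higher gene, ENSMOCG00000018788, the size of the estimate rested mostly on a single library. All 6 MAN1 libraries lay above the MAN0 median and 4 of 6 above the highest MAN0 library, MAN1 female 5 only just. MAN1 female 2 had 174 counts, or 8.18 CPM, while the other 5 MAN1 females had 0.753 to 1.202 CPM and the MAN0 females 0.389 to 0.891 CPM. The mean of the other 12 females was 0.707 CPM, so the gene met the minimum of 1 CPM for identified genes only through MAN1 female 2. Those low levels were a few times the 0.118 to 0.172 CPM that 3 counts are worth in a female library, a floor that covers counting error only. With all libraries the log2 fold change was 1.83 (SE 0.53; edgeR quasi-likelihood, unadjusted p = 0.00207, Benjamini-Hochberg adjusted p = 0.989). Without MAN1 female 2 it was 0.69 (SE 0.32, unadjusted p = 0.0448). Male libraries held 0.339 to 1.47 CPM with a log2 fold change of -0.0088 (SE 0.58).

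**Figure D4:**
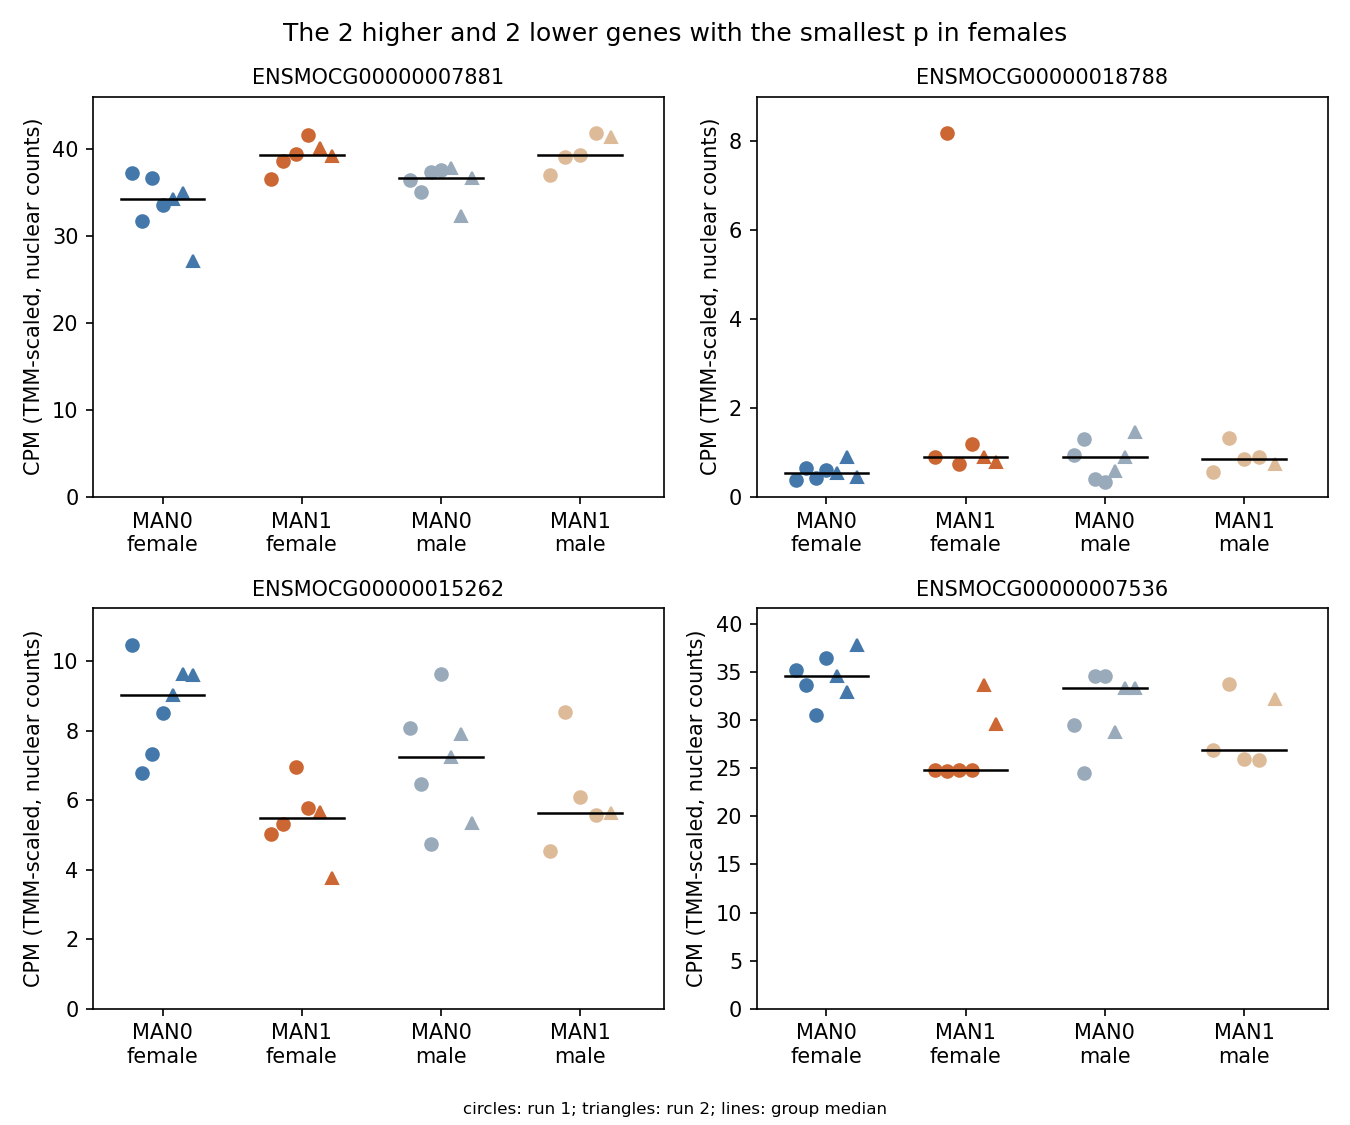
TMM-scaled CPM of nuclear counts (vertical axes, from 0) of the 4 identified genes, 2 higher and 2 lower in MAN1 females, in each library of the 4 groups. Circles are run 1, triangles run 2, lines the group median; for ENSMOCG00000018788 MAN1 female 2 stands at 8.18 CPM, and for each of the other 3 genes 5 of 6 MAN1 females lie outside the MAN0 female range.

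Few genes separated the groups of females. In 9 of the 14827 genes (0.0607%) the MAN1 and MAN0 ranges did not overlap. These 9 genes averaged between 0.437 and 65.9 CPM, and their absolute log2 fold changes ran from 0.080 to 1.28 with a median of 0.26. None passed (edgeR quasi-likelihood, smallest Benjamini-Hochberg adjusted p = 0.989), and 6 had an unadjusted p under 0.05. In males 8 of the 9 genes had an estimate of the same sign and 3 an unadjusted p under 0.05. Over all 14827 genes, 74.2% had the same sign in both sexes and 7.82% had an unadjusted p under 0.05 in males, and the 9 genes were not tested against these shares.

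Estimates of 2-fold or more were found for 90 genes (0.607% of those tested), of which 56 were under 1 CPM. The other 34 had 7 higher and 27 lower estimates in MAN1, and 14 of them had an unadjusted p under 0.05. When each female library was left out in turn, 13 of the 34 (2 higher and 11 lower) stayed at 2-fold or more each time, and 21 fell below it at least once. Leaving out MAN1 female 5 brought 9 of them below 2-fold.

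A set of nuclear genes ranged from near absent to well above the floor among the female libraries. In 53 of the 14827 genes some female library had at most 3 counts and another at least 100, thresholds chosen after the data were seen. The rule does not ask for 2 separate states. In MAN0 female 4, for example, 4 of the 53 genes were at or under 3 counts and 19 at or over 100, and the rest lay in between. They include 10 of the 34 genes with a 2-fold estimate at 1 CPM or more. Libraries at or under 3 counts occurred in both groups for 21 of the 53 genes, in MAN1 alone for 21 and in MAN0 alone for 11. This split depends on the cut and was not tested. ENSMOCG00000007706, for example, counts as MAN1 alone, although MAN0 female 1 had only 8 counts of it. Their median SE was 0.895 on the log2 scale, against 0.130 for all genes, and none of the 53 passed (edgeR quasi-likelihood, smallest Benjamini-Hochberg adjusted p = 0.989). Among the male libraries 62 of the 14827 genes (0.418%) met the same thresholds, and 36 of the 53 were among them.

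ENSMOCG00000007706, named after its values were seen because it was the gene called with run 2 alone, is among these 53 genes. It stood at 0.0956 CPM in MAN1 female 1, 0.346 CPM in MAN0 female 1, 0.267 CPM in MAN1 female 5 and 0.0787 CPM in MAN1 female 6. The other 9 females had 18.3 to 33.9 CPM, with no library in between. In run 2 alone both MAN1 females were low and the 3 MAN0 females high, and the log2 fold change was -7.35 (SE 0.37), with an adjusted p of 0.000257 by edgeR. Both of those MAN1 libraries had 6 counts or fewer, so this fitted value is no bound. In run 1, which had a low and 3 high libraries in each group, the log2 fold change was 0.038. Over all libraries it was -1.32 with an unadjusted p of 0.274. Among the males it was at 0 counts in MAN0 male 3 and MAN1 male 5 and at 5 counts in MAN0 male 1, and it had 296 to 913 counts in the other 9.

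The estimated differences in females did not line up between the runs, which hold separate libraries. Of the 13690 genes at 1 CPM or more, 13689 passed the filter on low counts in each run. Across these the log2 fold changes of run 1 and run 2 had a Pearson r of -0.029 and a Spearman rho of 0.0023, and 6946 genes (50.7%) had the same sign. Genes are not independent replicates, and these values are a description. In run 1, 200 genes had an unadjusted p under 0.05, and 96 (48%) of them kept their sign in run 2. In run 2 there were 351 such genes, and 160 (45.6%) of them had the same sign in run 1. The lists shared 2 genes in the same direction (1% of the run 1 list and 0.570% of the run 2 list) and 5 in opposite directions. Without MAN0 female 7 the r was -0.11 and the same-sign share 46.4%. Run 2 had only 5 females, and its median SE was 0.212 against 0.147 in run 1.

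**Figure D5:**
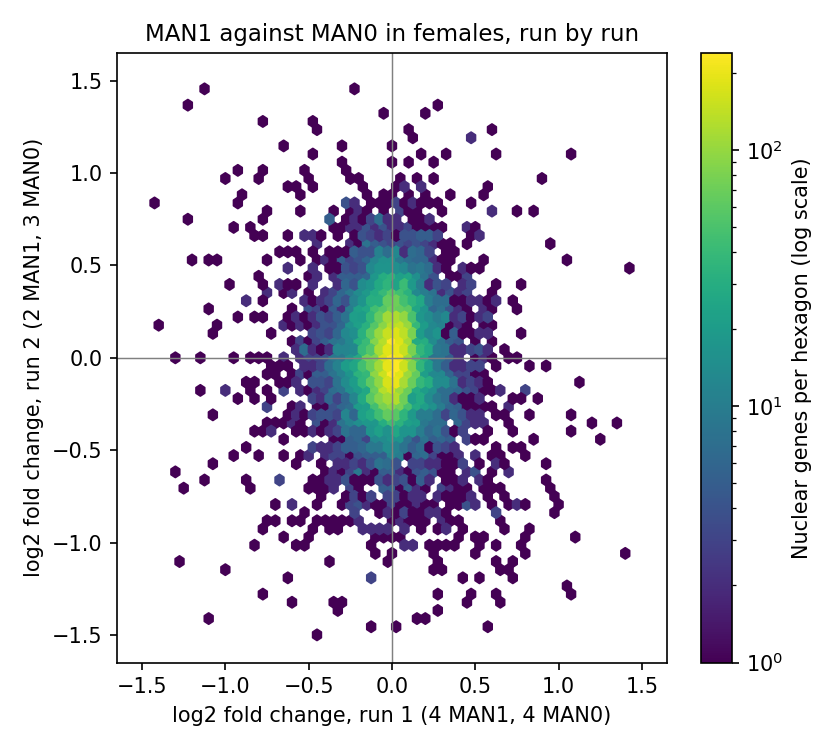
Log2 fold change of MAN1 against MAN0 in females in run 1 (horizontal axis) and run 2 (vertical axis); colour gives nuclear genes per hexagon on a log scale, and 75 of 13689 genes lie beyond the axes. The cloud is upright with no tilt (r = -0.029) and is wider along run 2.

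The female difference was set against the male one in the same model. By edgeR's interaction test 0 of 14827 genes (0%) passed, with a smallest Benjamini-Hochberg adjusted p of 1, and 102 genes (0.688%) had an unadjusted p under 0.05. By DESeq2 0 genes passed and 115 had such a p, and by limma-voom 0 passed and 88 had one. The edgeR count rose to 328 without MAN0 female 7. ENSMOCG00000018788 was the 1 of the 4 genes named by the smallest female p whose interaction had an unadjusted p under 0.05, with a log2 difference of 1.84 (SE 0.75, unadjusted p = 0.0227, Benjamini-Hochberg adjusted p = 1). Without MAN1 female 2 that difference was 0.58 (edgeR interaction, unadjusted p = 0.217). Because the 4 genes were chosen by their female p, their interaction values are no independent sign of a difference between the sexes. A p that misses the threshold does not show that females and males responded alike.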

How the data were processed

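The values deposited by the authors were estimated counts per gene, made with Trim Galore, MultiQC and kallisto, per the submitters' processing notes. For versions, build, annotation and strand setting, the sources used here give nothing. Kallisto divides reads that match several transcripts, so 9.11% to 10.1% of a library's values were not whole and levels of near-identical paralogs are uncertain. Values were rounded. The 13 mitochondrial rows were removed before totals and TMM scaling. Nuclear genes passing filterByExpr (minimum count 10) were tested with edgeR 4.0.16 (R 4.3.3, legacy quasi-likelihood fit) in a model of all 25 libraries with 4 group means and run, and p-values were adjusted by Benjamini-Hochberg over 14827 genes. SE is the log2 fold change over the root of F, and 95% intervals use the t quantile. Library measures were compared by exact permutation within run. Alternatives used DESeq2 1.42.0, limma 3.58.1 and sva 3.50.0. The procedure was tested on simulated counts.

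The labels do not state whether libraries are from separate animals or share a litter, and p-values measure only the spread among these libraries, which may be technical. Over the 36 within-group pairs of female libraries the chi-square per degree of freedom was 11.9 or more, so no library looked like a repeat deposit of another. This does not show that they are independent replicates. Since identifiers carry no names, few are printed. They were the 2 higher and the 2 lower with the smallest p among those with a mean of at least 1 CPM in females. The comparison, the level minimum and the tests were chosen with earlier results of these data known. Marker and pathway lists could not be used without gene names.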

Additional observations from a re-analysis of the deposited data

Results flagged for a closer look

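Checks for a library far from the others of its group were made on 18 sets of values, and chance alone would mark about 1 in 20 such sets. That rate does not hold for the levels of genes chosen by their female p. The nuclear total of MAN1 female 6, 26530000 counts to 4 digits, lay far above the next MAN1 female at 21950000. In MAN0 female 7, 24.97% of nuclear genes lay more than 1.5-fold from the median of the rest of its group, against 12.1% in the next library. The level of ENSMOCG00000018788 in MAN1 female 2, 8.18 CPM, lay far above the next MAN1 female at 1.202 CPM. Apart from these checks, the female and male log2 fold changes of the same gene differed by 1.84 (edgeR quasi-likelihood interaction, unadjusted p = 0.0227, not passing after Benjamini-Hochberg adjustment). The difference was 0.58 without MAN1 female 2.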

How the results depend on the processing

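None of the 41 alternatives turned the sign of the log2 fold change of the 4 genes identified by smallest p. These genes were chosen by p in the same libraries, so a kept sign was favoured in advance and is no support. None of the alternatives but run 2 alone called a gene in females (1 gene, ENSMOCG00000007706, at 0.038 in run 1 alone against -1.32 over all libraries). Leaving out each library in turn gave 0 calls in females and 0 for the sex interaction each time, 239 to 619 female genes and 87 to 328 interaction genes at an unadjusted p under 0.05, and 10550 to 11577 intervals inside 1.5-fold. Run 1 alone gave 231 female genes and 264 interaction genes. Run 2 alone gave 205 interaction genes and 5651 intervals inside 1.5-fold, as fewer libraries allow. Interaction genes numbered 271 with no filter on low counts, 249 with 2 surrogate variables and 240 without both MAN0 female 7 and MAN0 male 2. The causes were not tested. Some library measures, none with an adjusted p under 0.05 (exact permutation), changed sign. Genes detected (main difference 5.5) was -52 in run 1 alone, 101.3 in run 2 alone and -18.64 to 36.77 with a library left out. The nuclear total (main difference 1331000) was -523800 in run 1 alone, 4423000 in run 2 alone and 179500 to 1718000 with a library left out. In run 2 each MAN1 female had a higher nuclear total than any MAN0 female. The 10-gene share of nuclear counts was 0.012 in run 2 alone and -0.073 to 0.040 with a library left out. The mitochondrial difference ran from -1.78 to -0.42. Deviations of same-numbered MAN1 and MAN0 females from their group means within run had r between -0.332 and 0.316. Of the 6 MAN1 females, 2 correlated best with their own number. Run 2 held 2 MAN1 females, whose deviations mirror each other, so these values cannot decide whether the numbers mark pairs. With the replicate number as a block, no gene passed (0) and 327 stood at an unadjusted p under 0.05, and over pairs 1 to 6 the replicate block gave 0.024 for the 10-gene share and -7.5 for genes detected. Covariates for the mitochondrial share, the newer edgeR fit and the removal of 2 libraries together were chosen after seeing the data.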
